A study of Mus musculus with 39 samples.

Results

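Values of 10 genes of the crypt base stem cell were followed through 39 single cells of the irradiated mouse small intestine. The genes were Olfm4, Scn2b, Aqp4, Cdca7, Smoc2, Gkn3, Slc12a2, Slc14a1, Cdo1 and Pla2g4a, and all 10 were found by name among the 25219 genes of the deposited values. They were chosen by their measured levels in these same cells, as stem cell genes still high in part of them while Lgr5, the usual marker of these stem cells, was low. Their levels and their joint presence are therefore described here and not tested. The mice carried Lgr5-EGFP-Ires-CreERT2 together with Rosa-lsl-tdTomato, so that Lgr5-expressing cells turned permanently red after tamoxifen because a drug-dependent Cre recombinase is driven from the Lgr5 gene. Tamoxifen was given 24 h before 10 Gy total body irradiation, and red cells without the surface protein Sca1 were sorted 48 h after it. All 39 cells shared this genotype, treatment and time. No animal, age or sex is named for any of them, so that they form 1 biological sample, and any spread given below is a spread over cells. No unirradiated cell was analyzed here, and "lost" means a level under 1 FPKM (sequenced fragments per kilobase of a gene's transcript and per total of fragments) and not a fall over time.

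Stem cells at the base of the intestinal crypt divide throughout life and sit between Paneth cells, which supply them with Wnt and Notch signals. They are known by Lgr5, a receptor that strengthens Wnt signaling, and by a set of further genes that mark the same position. Those genes do unlike things. Olfm4, Smoc2 and Gkn3 encode secreted proteins, Aqp4, Slc12a2, Slc14a1 and Scn2b encode proteins of the cell membrane that carry or control the flow of water, salts or urea, Cdca7 encodes a nuclear protein of dividing cells, and Cdo1 and Pla2g4a encode enzymes. The question here was which of these marks the labeled cells still carried after radiation, and in which combinations.

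The cells held between 398418 and 3903971 estimated counts on genes, and between 2287 and 5779 genes at 1 FPKM or more (median 4609). Cells 9 and 79 had the fewest genes, 2287 and 2335, and every other cell had 2988 or more. The epithelial marker Epcam was above 1 FPKM in all 39 cells. Of 8 immune markers, 5 were at 0 in every cell and Ptprc, which marks all white blood cells, did not exceed 0.312 FPKM, while Cd74, a chaperone of antigen presentation, was at 1 FPKM or more in 20 cells and reached 613 FPKM. The summed immune markers passed 100 FPKM in 7 cells. Of 6 stromal and endothelial markers, 5 were at 0 throughout. Secretory and absorptive markers were unevenly present. At least 10 cells reached 1 FPKM for 8 of 10 Paneth cell, 5 of 8 goblet cell, 5 of 9 enterocyte and 0 of 8 enteroendocrine markers. Others were rare, such as the goblet cell marker Muc2 in 5 cells and the enterocyte marker Sis in 1. The summed level of 10 Paneth cell markers ran from 22.1 to 13099 FPKM, that of 8 goblet cell markers from 11.3 to 41350 FPKM and that of 9 enterocyte markers from 9.97 to 41011 FPKM.

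RefSeq promoter sequences (GRCm38.p6, the build that the labels name) were at hand for 5 of the 10 genes, namely Olfm4, Scn2b, Cdca7, Gkn3 and Pla2g4a. The 250 bases before the start site of Olfm4, Scn2b and Cdca7 are shown because, after Aqp4, these genes followed the mean of the rest of the set most closely, and Gkn3 is shown as the gene found in the fewest cells. Their start sites equal those of the deposited gene table. Capitals mark matches, on either strand, to the motifs searched. They were CTTTGA, the core of the site through which the Wnt factors TCF and LEF act. Next was TGGGAA, the core of the site of the Notch factor RBPJ. An E-box, the kind of site that Ascl2-like factors use, was searched as CAGCTG. The box near the start of many genes that is named for its letters was searched as TATAA. No match overlapped a match of another motif.
Olfm4, chr14:80000052-80000301, plus strand: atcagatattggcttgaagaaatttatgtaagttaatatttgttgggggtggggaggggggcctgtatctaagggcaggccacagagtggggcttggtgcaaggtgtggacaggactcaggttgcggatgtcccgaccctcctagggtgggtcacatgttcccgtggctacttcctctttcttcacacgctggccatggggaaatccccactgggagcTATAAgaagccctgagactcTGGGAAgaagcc
Scn2b, chr9:45117626-45117875, plus strand: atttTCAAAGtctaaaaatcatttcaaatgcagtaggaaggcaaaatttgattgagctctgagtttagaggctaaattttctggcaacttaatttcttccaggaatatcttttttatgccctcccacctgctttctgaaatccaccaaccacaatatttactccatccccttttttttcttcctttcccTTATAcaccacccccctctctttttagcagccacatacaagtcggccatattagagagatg
Cdca7, chr2:72475969-72476218, plus strand: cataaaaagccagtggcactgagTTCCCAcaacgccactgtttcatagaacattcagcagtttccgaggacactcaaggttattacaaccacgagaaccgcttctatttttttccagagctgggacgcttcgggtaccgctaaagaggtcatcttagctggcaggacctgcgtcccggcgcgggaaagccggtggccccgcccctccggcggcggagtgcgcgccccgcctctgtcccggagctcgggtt
Gkn3, chr6:87388936-87389185, minus strand: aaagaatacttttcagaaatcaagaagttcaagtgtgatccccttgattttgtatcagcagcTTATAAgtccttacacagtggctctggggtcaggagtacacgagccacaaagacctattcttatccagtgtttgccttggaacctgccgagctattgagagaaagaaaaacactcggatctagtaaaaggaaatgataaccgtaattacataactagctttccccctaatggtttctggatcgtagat
Olfm4 had TATAA beginning 32 bases and TGGGAA beginning 12 bases before its start site. Cdca7 held TGGGAA on the opposite strand, 227 bases before the start, in a sequence with a GC content of 59.2%, and Scn2b held CTTTGA on the opposite strand, 246 bases before the start, and TATAA on the opposite strand, 61 bases before it. In Gkn3, TATAA occurred on both strands as 1 palindromic stretch, 188 bases before the start. None of the printed sequences held CAGCTG. Over the 32851 promoters of the same length, 13.8% held CTTTGA, 21.6% TGGGAA and 22.8% TATAA, and 4271 of them held CAGCTG. A match is a run of letters and says nothing of whether a factor binds there.

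Among the secreted proteins, Olfm4, a glycoprotein that is the most widely used marker of these stem cells beside Lgr5, was by far the most abundant (chr14:80000302-80021930, plus strand). Its level was 0.180 FPKM in the lowest cell, 829 FPKM in the median cell and 3721 FPKM in the highest, cell 36. It reached 1 FPKM in 33 of 39 cells (84.6%, 95% interval 69.5 to 94.1). In the median cell, Olfm4 made up 60.6% of the summed FPKM of all 10 genes. No cell was at 0, and the 6 cells under 1 FPKM each held 1 to 4 estimated counts. Smoc2, a calcium-binding protein of the extracellular matrix (chr17:14279506-14404790), was at 1 FPKM or more in 27 cells, with a median of 21.3 FPKM over all cells and a maximum of 612 FPKM. That maximum lay in cell 9, the cell with the fewest genes, and the second highest was 249.7 FPKM in cell 52. Gkn3, a gastrokine otherwise known from the stomach (chr6:87383319-87388935, minus strand), was either off or strong. It was listed at 0 in 32 cells and lay between 23.2 and 302 FPKM in the other 7 (17.9% of cells, 7.54 to 33.5), with no cell in between.

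Among the membrane proteins, Slc12a2, a cotransporter of sodium, potassium and chloride, was present in nearly every cell (chr18:57878678-57946821). It was at 1 FPKM or more in 35 cells, at a median of 101.3 FPKM over all cells and a maximum of 301 FPKM, and in the cells that had it the highest level was 53.8 times the lowest. In Olfm4 the same ratio was 3609. Scn2b, an auxiliary subunit of voltage-gated sodium channels (chr9:45117876-45130070), was found in 28 cells at 9.05 to 267 FPKM and was at 0.619 FPKM or less in the other 11. Aqp4, a water channel (chr18:15389394-15403684), split the cells most evenly, with 20 cells at 1.45 to 140 FPKM and 19 cells under 1 FPKM (51.3% detected, 34.8 to 67.6). Slc14a1, a urea transporter (chr18:78100091-78142119), was found in 15 cells and was the weakest of the set, with a median of 7.61 FPKM in those cells and 2 cells above 100 FPKM, cells 7 and 39 at 123 and 102 FPKM.

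Cdca7, a partner of chromatin remodeling that is known to be switched on in dividing cells (chr2:72476219-72486890), was the most widely detected gene. It reached 1 FPKM in 36 of 39 cells (92.3%, 79.1 to 98.4), with 0.183 FPKM in the lowest cell, 115 FPKM in the median cell and 691 FPKM in the highest. The enzymes were found in fewer than 18 cells each. Pla2g4a, a phospholipase that frees arachidonic acid (chr1:149829622-149961284), was found in 17 cells (from 1.46 FPKM upward), and 35.1% of its summed level came from cell 96 at 407 FPKM. Cdo1, which breaks down cysteine (chr18:46713205-46728342), was found in 16 cells, from 2.48 to 185 FPKM. Of the 10 genes, 4 lay on chromosome 18, at positions more than a megabase apart.

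**Figure D1:**
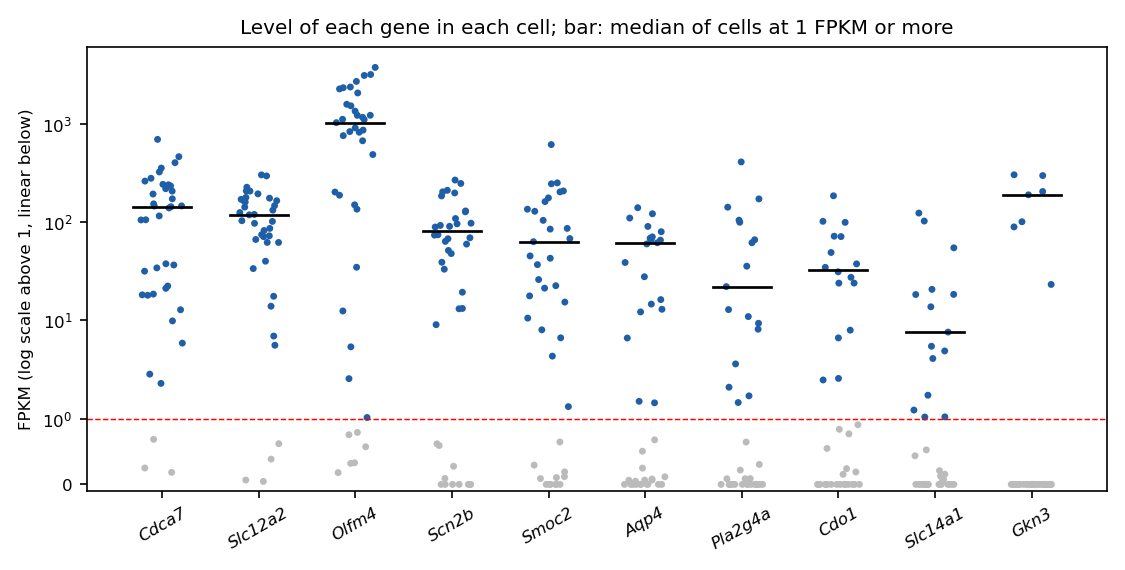
FPKM of each of the 10 genes (x axis, from the most to the least often detected) in each of the 39 cells (points), on an axis that is linear below 1 and logarithmic above. Blue points are cells at 1 FPKM or more, gray points are cells below it (dashed line), and black bars are the medians of the blue points. Olfm4 lies highest, and Gkn3 has 7 blue points and all others at 0.

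The cells carried unequal numbers of these genes. The number at 1 FPKM or more was 0 in cell 79, 10 in cell 22 and 6 in the median cell. The numbers were not spread evenly: 13 cells had 3 or 4 of the genes, 1 cell had 5, 7 cells had 6, 1 cell had 7 and 16 cells had 8 or more (41.0%, 25.6 to 57.9). No cell had 1 or 2. At a stricter limit of 10 FPKM, 17.9% of the cells had 8 or more. Cells with more genes detected overall had more of these 10 (Spearman rho 0.518, Pearson r 0.563 over 39 cells, r 0.430 without cells 9 and 79, the cells farthest from the median). The number of the 10 genes also rose with the estimated counts per cell (rho 0.574). The part of depth in the number per cell was not tested. With all cells thinned to 300000 reads and a limit of 3 reads, the median number was again 6, and 30.8% of cells had 8 or more.

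**Figure D2:**
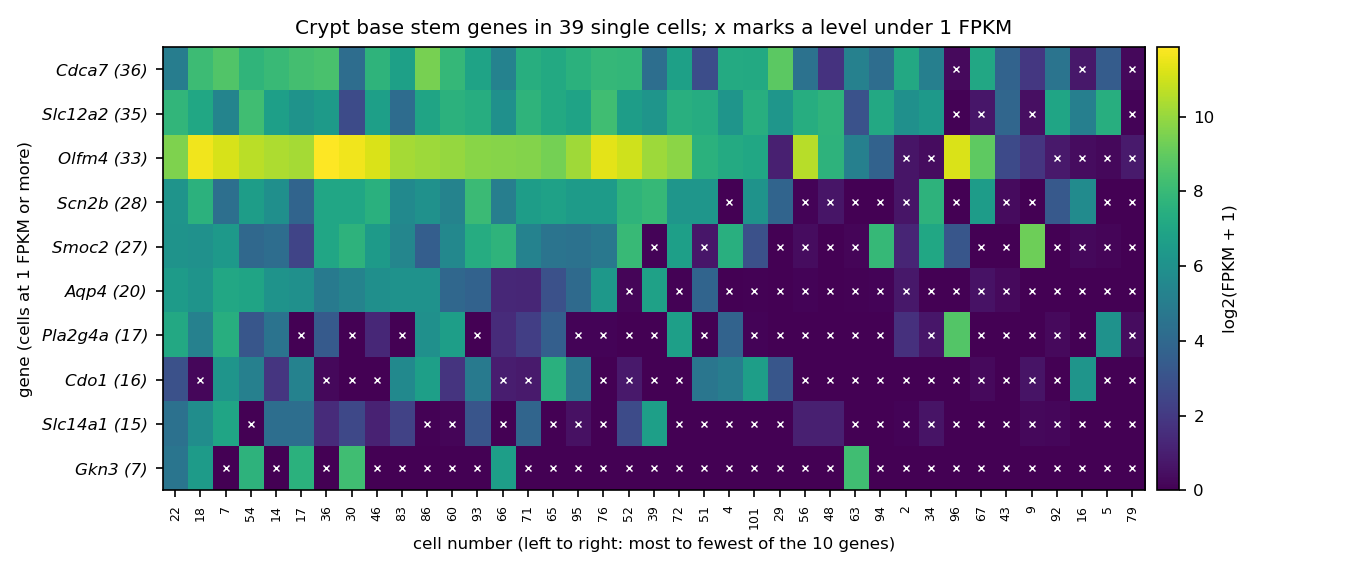
Level of the 10 genes (rows, with the number of cells at 1 FPKM or more) in the 39 cells (columns, by cell number, from the most to the fewest of the 10 genes), as log2(FPKM + 1) in color, with a cross for a level under 1 FPKM. The upper 3 rows are filled in 30 of 39 cells, and the row of Aqp4 fills only the left of the plot, with no cell of fewer than 6 genes.

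Ordered by how many cells had lost them, the genes ran Cdca7 (3 cells under 1 FPKM), Slc12a2 (4), Olfm4 (6), Scn2b (11), Smoc2 (12), Aqp4 (19), Pla2g4a (22), Cdo1 (23), Slc14a1 (24) and Gkn3 (32). Neighbors in this order mostly differed by 1 or 2 cells and are not told apart by their intervals. The largest steps were the 8 cells between Slc14a1 and Gkn3, the 7 between Smoc2 and Aqp4 and the 5 between Olfm4 and Scn2b. Intervals overlapped across each of these steps as well. At 5 FPKM, Slc14a1 was in 9 cells and Gkn3 in 7, and at 10 FPKM each was in 7. The order followed abundance for 8 of the 10 genes and not for Olfm4 and Gkn3. Among the 8, the median level in the cells that had the gene fell along the order, from 141 FPKM for Cdca7 to 7.61 FPKM for Slc14a1, except that Cdo1 (32.9 FPKM) was above Pla2g4a (22.04 FPKM). Olfm4 had the highest level in the cells that expressed it (median 1022 FPKM) but was under 1 FPKM in more cells than Cdca7 and Slc12a2 (118 FPKM), and Gkn3, the rarest gene, had the second highest level in its 7 cells (189 FPKM). With limits of 5 or 10 FPKM, or after thinning, the first 6 places were held by the same 6 genes, with Slc12a2 ahead of Cdca7 at 5 and 10 FPKM. At any value above 0 the same 6 genes led, but Olfm4, Cdca7 and Slc12a2 were each in all 39 cells and had no order, and Smoc2 (33 cells) was ahead of Scn2b (32 cells).

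The presence of Aqp4 went with that of the commoner genes. All 20 cells with Aqp4 also had Olfm4, Scn2b, Cdca7 and Slc12a2, and 18 of them had Smoc2. Of all 6549 other genes that were at 1 FPKM or more in at least 10 cells, 14.6% were present in every cell with Aqp4. Each cell with Aqp4 had 6 to 10 of the 10 genes, and each cell without it had 0 to 6. The lowest Olfm4 level in a cell with Aqp4 was 187 FPKM, and 26 cells reached that level, 20 with Aqp4 and 6 without. Olfm4, Cdca7 and Slc12a2, each of which is in most cells, were also present in all 15 cells with Slc14a1 and all 7 with Gkn3, as were 13.6% and 20.4% of the genes used. Cdo1 occurred in 1 cell without Olfm4 and Pla2g4a in 2.

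The cells did not form a strict ladder. A case was counted where a cell had just one gene of a pair that differ in how many cells have them. There were 710 such cases, and in 87.0% of them the commoner gene was the one present, although the order was itself made from these frequencies, which favors that outcome. Of the 37 cells with 1 to 9 of the genes, 7 held exactly the genes that their number and the order would give. All 6 commonest genes were present in 18 cells, and in those cells the 4 rarest (Pla2g4a, Cdo1, Slc14a1 and Gkn3) occurred in 12 of 16 possible combinations. Cell 22 alone had all of the 4. Over the whole set, the 39 cells showed 32 different combinations of the 10 genes.

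**Figure D3:**
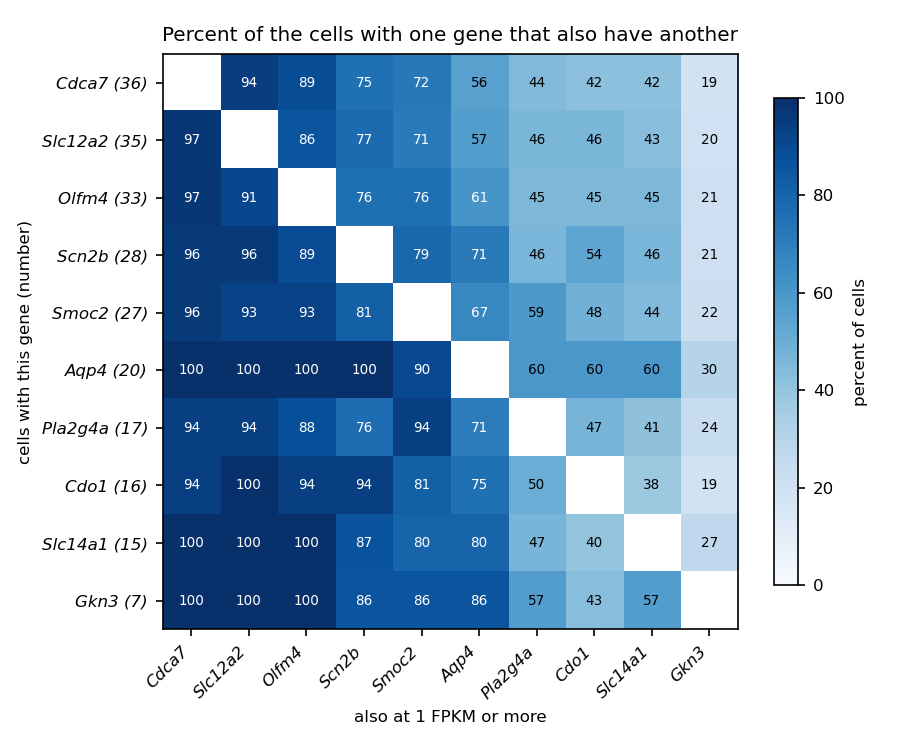
For the cells that have one gene at 1 FPKM or more (rows, with their number), the percent that also have another gene (columns), with genes in the order of their frequency. The row of Aqp4 reads 100 for Cdca7, Slc12a2, Olfm4 and Scn2b.

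Several cells held a rare gene at a high level while lacking common ones, and 3 of the 10 genes had their highest level in a cell with 4 or fewer of the set. Cell 96 lacked Cdca7 (0.250 FPKM) and Slc12a2 (0.0452 FPKM) but held Olfm4 at 2353 FPKM and the highest Pla2g4a, 407 FPKM. The same cell had the highest summed level of 6 markers of tuft cells, a chemosensory cell type, at 5569 FPKM, against a median of 0.136 FPKM over all cells. Cell 63 held the highest Gkn3 (302 FPKM) beside Olfm4 at 34.7 FPKM, with no Scn2b, and had the highest goblet cell sum (41350 FPKM) together with a Paneth cell sum of 4520 FPKM. Cell 9 held the highest Smoc2 (612 FPKM) with Olfm4 at 2.56 FPKM, a Paneth cell sum of 4303 FPKM and a goblet cell sum of 2022 FPKM. Cell 16 held Cdo1 at 71.7 FPKM and Scn2b at 51.3 FPKM with Olfm4 at 0.329 FPKM. Cell 79, with none of the 10 genes, had the highest enterocyte sum (41011 FPKM), mostly Fabp1, a fatty acid-binding protein, at 40997 FPKM, and 3932 FPKM of tuft cell markers. The part of these other cell identities, or of more than 1 cell in a capture site, was not tested.

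Levels were then compared pair by pair over the 39 cells, which share library preparation and differ in depth. Of the 10 genes, all but Gkn3 were at 1 FPKM or more in at least 10 cells. Among the 36 pairs of these 9 genes, 4 (11.1%) had a Spearman rho of 0.5 or more, against 0.301% of the 21447975 pairs of the 6550 genes detected as often. The median rho was 0.252 in the 36 pairs, 0.218 in all 45 pairs and 0.0539 in all pairs of genes. All 4 close pairs contained Aqp4, so they are not 4 separate cases. The genes were chosen by their levels in these same cells, which favors a higher rho among them than among all genes. Its rho was 0.692 with Olfm4 (r 0.653, and 0.632 without the 2 cells farthest from the median), 0.541 with Cdca7, 0.531 with Scn2b and 0.526 with Slc14a1. Leaving out each cell in turn kept the pair of Olfm4 and Aqp4 between 0.675 and 0.774. At the other end, Slc12a2, Gkn3 and Pla2g4a hardly followed the rest. The rho of Slc12a2 with the mean of the other 9 genes was 0.228, and its closest member was Scn2b (0.284), while 911 genes outside the set came closer. The same value was 0.246 for Pla2g4a and 0.188 for Gkn3, against 0.746 for Aqp4, 0.602 for Olfm4, 0.576 for Cdca7 and 0.508 for Scn2b.

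Within cells that had both genes of a pair, levels mostly did not rise together. In the 33 pairs with at least 10 cells that had both genes, the median rho within those cells was -0.0316, and 17 pairs were below 0. In 8 of the 33 pairs rho was above 0.3. No matching share over other pairs of genes is given, and some pairs rest on 12 cells, so these counts are not read as particular to the set. It was 0.741 for Aqp4 and Slc14a1 (12 cells), 0.545 for Aqp4 and Pla2g4a (12 cells), 0.487 for Olfm4 and Aqp4 (20 cells) and 0.470 for Olfm4 and Cdca7 (32 cells). Smoc2 was at -0.474 with Cdca7 in 26 cells and at -0.420 with Slc14a1 in 12 cells, but at 0.464 with Scn2b in 22 cells. Scn2b and Pla2g4a were at -0.423 in 13 cells. With the number of genes detected per cell held fixed, the median rho of all 45 pairs was 0.157 and that of Olfm4 and Aqp4 was 0.721.

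**Figure D4:**
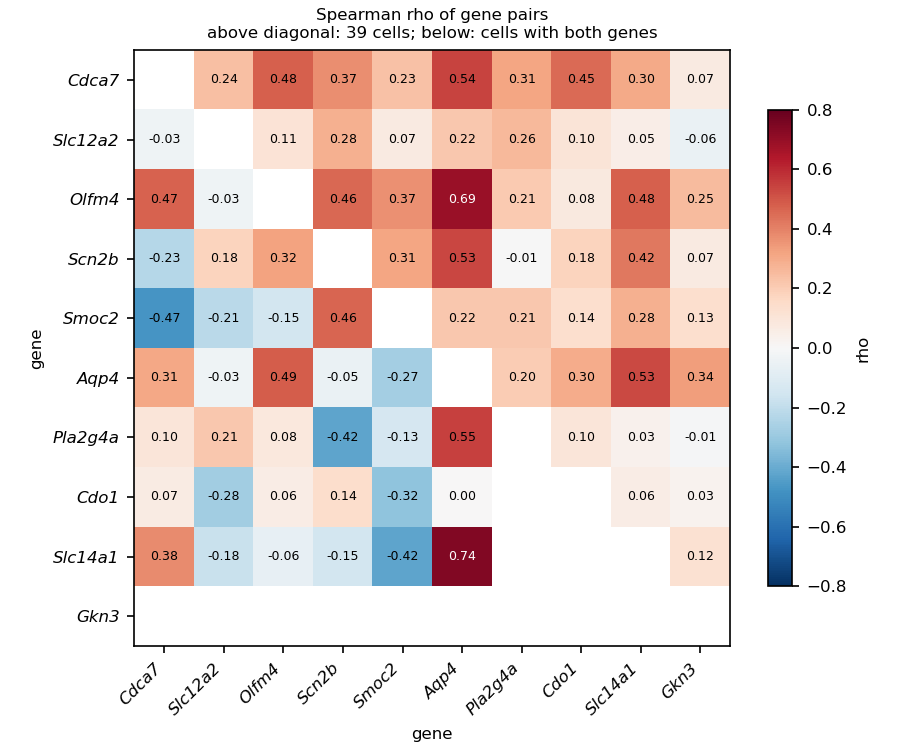
Spearman rho of each pair of the 10 genes, in color and digits. Above the diagonal all 39 cells are used, and below it the cells in which both genes are at 1 FPKM or more, left blank under 10 such cells. The row and column of Aqp4 hold the strongest values above the diagonal, and many squares below the diagonal are blue.

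Lgr5 itself, on chromosome 10, reached 1 FPKM in 8 of 39 cells (20.5%, 9.30 to 36.5), and its median was 0.156 FPKM. It reached 5 FPKM in 4 cells, lay above 0 but under 1 FPKM in 23 and was at 0 in 8. The levels of 1 FPKM or more were 82.0 FPKM in cell 93, 20.7 in cell 92, 16.9 in cell 9, 7.40 in cell 18, 2.88 in cell 52, 2.37 in cell 60, 1.63 in cell 79 and 1.41 in cell 48. These cells held 8, 3, 3, 9, 6, 8, 0 and 4 of the 10 genes in the same order. At least 8 of the genes were present in 3 of these 8 cells and in 13 of the 31 others. Cells 9 and 79, with 3 and 0, also had the fewest genes detected overall. Of the 31 cells under 1 FPKM of Lgr5, 27 had Olfm4 (87.1%), 29 had Cdca7, 29 had Slc12a2, 23 had Scn2b, 22 had Smoc2 and 17 had Aqp4 (54.8%). Over all 39 cells, Olfm4 was in 84.6% and Aqp4 in 51.3%. In 20 of the 31 cells (64.5%) at least 6 of the genes were present, against 61.5% of all 39 cells. The genes were chosen as still high while Lgr5 was low, which favors these counts. Cell 22, with all 10 genes, had Lgr5 at 0.0456 FPKM. The rho of Lgr5 with the mean of the 10 genes was -0.234, but 31 of the 39 Lgr5 values that it ranks lay under 1 FPKM. The cassette of the strain sits in the Lgr5 gene, and its part in the level of Lgr5 was not tested.

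**Figure D5:**
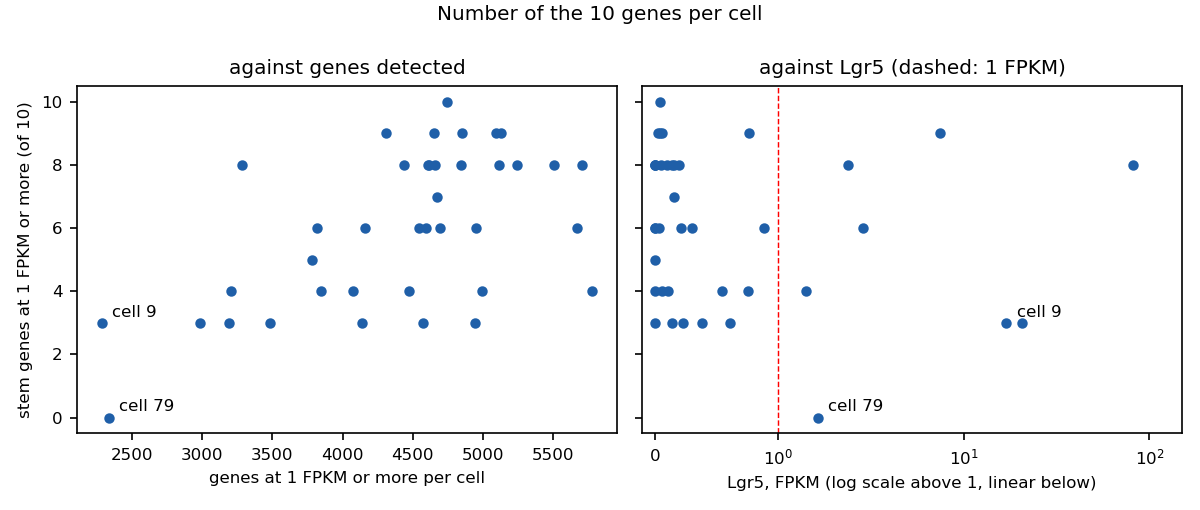
Number of the 10 genes at 1 FPKM or more in each of the 39 cells (points), against the number of all genes detected (left) and against the FPKM of Lgr5 on an axis linear below 1 and logarithmic above (right, dashed line at 1 FPKM). On the left the number rises with the genes detected, and on the right the cells with 8 or more genes lie on both sides of the line, 13 to its left and 3 to its right.

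Ly6a, which encodes the Sca1 protein that the sort excluded, was at 1 FPKM or more in 4 cells, at 509, 477, 3.44 and 1.26 FPKM. They held 4, 3, 4 and 3 of the 10 genes and none had Aqp4 at 1 FPKM. The rest of the cells were compared by lists of known genes. For each gene, rho was taken with the mean of the 10 standardized log2(FPKM + 1) levels, and over all 6541 genes used the median of this rho was 0.127. Of these genes, 2.6% reached 0.5, 0.0917% (6 genes) were at -0.5 or less, 74.2% were above 0 and 25.8% were below 0.

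Other stem cell genes were mostly positive, as were most genes. Of 26 listed, 16 were detected often enough, 15 of them had a positive rho and the median was 0.191, but 1 gene reached 0.5. With the number of genes detected held fixed, 13 of the 16 were positive, against 59.2% of all genes, and the median was 0.126 for this list and 0.0417 for all genes. The gene at 0.5 was Ifitm3, an interferon-induced membrane protein, at 0.545, followed by Ascl2, a transcription factor of the stem cell state, at 0.367. The lowest were Cd44, a cell adhesion receptor (0.00567), and Sox9, a transcription factor of the crypt (-0.0283). Wnt targets did not share one direction, with a median of -0.0150 over 5 genes. Axin2, a feedback inhibitor of Wnt, was at 0.446 and Fzd7, a Wnt receptor, at 0.275, while Tcf7l2, a mediator of Wnt signaling, was at -0.121 and Ccnd1, a G1 cyclin, at -0.212. Notch genes had a median of 0.0139 over 5 genes, and of -0.0539 without cells 9 and 79. They ran from Hes1, a Notch target, at 0.227 and Notch2 at 0.0790 to Rbpj (-0.00182) and Jag1, a ligand (-0.152).

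All 16 proliferation genes had a positive rho, as had 74.2% of all genes, with a median of 0.378. The highest were Ccna2, the cyclin of S phase (0.628), and Rrm2, which makes nucleotides for DNA synthesis (0.560), and these were the members of the list at 0.5 or more. The lowest were Top2a, a topoisomerase (0.193), and Tyms, thymidylate synthase (0.116). With the number of genes detected held fixed, the median of this list was 0.222 and 14 of the 16 were positive, against 59.2% of all genes. The p53 targets lay below the median of all genes, with 8 of 10 negative and a median of -0.165. Phlda3 (0.0819) and Zmat3 (0.00448) were the highest, and Plk2 (-0.358) and Cdkn1a, the cell cycle inhibitor p21 (-0.462), the lowest. With the number of genes detected held fixed, all 10 were negative, Phlda3 (-0.00455) and Zmat3 (-0.126) included, against 40.8% of all genes. Of the YAP and revival genes, which mark the regenerating epithelium, 7 of 16 were detected often enough, 6 of them had a negative rho and the median was -0.359. Cyr61 stood against the list at 0.386, Crip2 was at -0.223, and Anxa3 (-0.475) and S100a6 (-0.503) were the lowest. The count of negative genes in this list was again 6 of 7 with the number of genes detected held fixed.

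Of all genes used, the level of Sptssa, a small subunit of the enzyme that starts sphingolipid synthesis, was most like the mean of the 10 (rho 0.775, detected in 34 cells, median 87.4 FPKM). It was followed by Hspd1, a mitochondrial chaperone (0.754), Hmgb1 (0.726) and Hmgn2 (0.697), both chromatin proteins, Tuba1b, an alpha-tubulin (0.695), Zc3h14 (0.680), Nudc (0.676) and Ddx1, an RNA helicase (0.674). Hspd1, Hmgb1, Hmgn2 and Tuba1b have near-identical copies in the genome, between which counts could have been divided. The least like were 2200002D01Rik (-0.657), Phgr1 (-0.554), Sdcbp2 (-0.537), Gm17644 (-0.511), S100a6 (-0.503) and Cdhr5, a cadherin of the brush border (-0.5002). Taken one by one, the genes had different nearest neighbors outside the set. The closest was Sptssa to Aqp4 (0.769), Cbx1, a chromatin protein, to Scn2b (0.668), Rfwd3 to Cdca7 (0.668), Tpr to Smoc2 (0.604), Cps1, a urea cycle enzyme, to Slc14a1 (0.633), Pigx to Cdo1 (0.587), Cbll1 to Pla2g4a (0.643), Cdc42ep1 to Gkn3 (0.643) and Gm10012 to Slc12a2 (0.589). Only for Olfm4 was the nearest gene a member of the set, Aqp4, with 0 outside genes closer, and for Aqp4 2 outside genes, Sptssa and Ddx1, came closer than Olfm4.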

How the data were processed

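Single red, Sca1-negative crypt cells were captured on a C1 chip, and their cDNA was made with the SMARTer kit, prepared with Nextera XT and sequenced. Per the labels, expression values were extracted by Takara Bio, and the submitters' processing notes name bcl2fastq 1.8.4, TopHat2 2.0.14 and the builds mm10 and GRCm38; the counter is not given in the sources used here. For 25219 genes per cell, the deposited values are FPKM, normalized by the authors, and raw estimated counts (expected counts, 18.4% of those above 0 not whole to within 1e-06). Gene positions are those deposited.

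FPKM was used as deposited, as log2(FPKM + 1) where levels were standardized. A gene was called present at 1 FPKM or more, and genes present in at least 10 cells (6550) were used for comparisons across genes. Shares carry exact Clopper-Pearson 95% intervals, which cover the counting of cells only and no spread between animals. No molecular identifiers are named. Estimated counts, rounded, were used for depth and thinning (300000 reads per cell). No test was run, since the cells are 1 biological sample, and no count model was fitted. Doublets were not called, as capture sites had been inspected by microscope. All 39 cells were kept.

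The 10 genes, the gene lists and the limits were chosen with earlier results of these data known. Named genes were the 10, Lgr5 and Ly6a, the 2 highest and 2 lowest of each list, the 8 most and 6 least like genes, and the nearest gene to each of the 10; 2 genes that this rule names are not reported here. The genes named beside single cells, and the motifs, were chosen after the values were seen. The ranking code was also run on simulated data with planted genes, and the outcome is not reported here. Alternatives were other detection limits, pseudocount, scaling, thinning, leaving out cells and holding the number of genes detected fixed. Ranks and intervals came from scipy 1.17.1, tables from pandas 2.3.3 with numpy 2.4.6, and plots from matplotlib 3.10.9, under Python 3.11.15.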

Additional observations from a re-analysis of the deposited data

How the results depend on the processing

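The median rho of the 45 pairs was 0.218. It was 0.157 with the number of genes detected held fixed and -0.0316 within the cells that had both genes of a pair, and it ran from 0.188 to 0.254 when each cell was left out in turn. Thinning, rescaling of the cells and leaving out cells 9 and 79 kept it inside that range, and the pseudocount cannot change a rank correlation. The share of cells with 8 or more of the genes, 41.0%, was 23.1% at a limit of 5 FPKM and 17.9% at 10 FPKM. The share of cases in the order of frequency, 87.0%, was 90.4% at any value above 0, and between 87.2% and 88.8% with 5 or 10 FPKM, thinning or without cells 9 and 79. Of the 8 most like genes, 5 remained with the number of genes detected held fixed, and 5 with the number of stem genes per cell in place of their mean level.

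Among the lists, the median rho of the other stem genes was 0.126 with the number of genes detected held fixed. Without cells 9 and 79 it was 0.336 for proliferation genes, -0.230 for p53 targets, -0.453 for YAP and revival genes, and -0.0539 for Notch genes, which had been 0.0139. With the number of genes detected held fixed it was 0.222 for proliferation genes and -0.246 for p53 targets. Causes were not tested. No paired analysis was possible because the labels give 1 group. Of the 156 values under 1 FPKM, 104 were 0 and the other 52 rested on 1 to 11 estimated counts, and the part of depth in them was not tested.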

Other observations

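Markers of mature lineages were set against the same mean of the 10 stem genes. Of 5 enterocyte markers detected often enough, Fabp2, an intestinal fatty acid-binding protein, was at rho 0.195, while Rbp2, a retinol-binding protein, was at -0.264 and Fabp1 at -0.206 over the 39 cells. Fabp2 (median 138 FPKM) was present in 35 of 39 cells, and its rho was 0.0704 with the number of genes detected held fixed, where Rbp2 was at -0.423 and Fabp1 at -0.301. Of 8 Paneth cell markers used, 5 had a negative rho, against 25.8% of all genes, and the median was -0.0208. They ran from the defensin Defa22 (0.0964) and the antimicrobial lectin Reg3g (0.0551) to Defa17 (-0.203) and Defa24 (-0.295), which are defensins too. Again 5 of 8 were negative with the number of genes detected held fixed, against 40.8% of all genes, and Reg3g was then at -0.109. Of 5 goblet cell markers, 4 were negative, against the same 25.8%, with a median of -0.132. They ran from Agr2 (0.0415) and Zg16 (-0.0650) to Tff3 (-0.162) and Spink4 (-0.328), and 4 of 5 were again negative with the number of genes detected held fixed. Keratin 8 (Krt8), a filament protein of simple epithelia that was present in all 39 cells, was at -0.491, Epcam at -0.363 and Krt18 at -0.191, while Cdh1, the adhesion protein E-cadherin, was at 0.118 and Vil1, villin of the brush border, at 0.0722. Holding the number of genes detected fixed, Krt8 was at -0.473, Epcam at -0.345, Krt18 at -0.193, Cdh1 at -0.0264 and Vil1 at 0.0141. Tuft cell markers were present in few cells, 2 to 5 of 39 for each of the 6, and their sums above 100 FPKM lay in 2 cells, 96 and 79. Of 8 enteroendocrine markers, 5 were at 0 in every cell and Sct, secretin, was present in 6. Their sum passed 100 FPKM in 3 cells, at 498 FPKM in cell 79, 240 FPKM in cell 63 and 107 FPKM in cell 96.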
